A study of Mus musculus with 15 samples.

Results

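Chemokines are small secreted proteins that guide the movement of leukocytes, and their receptors are G protein-coupled receptors on the cells they attract. Their genes were taken from the arrays by name, as the non-control probes whose gene name begins with Ccl, Cxcl, Ccr or Cxcr and a digit or with Cx3c, or is Xcl1, Xcr1, Pf4 or Ppbp. This gave 71 of the 55681 probes, which measured 56 of 24336 named genes, 37 of them ligands and 19 receptors. RNA of 15 whole liver tumors of C57BL/6J mice was hybridised, 1 tumor per array. The mice carried a liver-specific deletion of Trp53 (p53LKO) or were Trp53 flox/flox controls (p53f/f), and mice of every group had received carbon tetrachloride (CCl4, 0.5 µl per g, intraperitoneal, in olive oil) for 16 weeks from an age of 6 weeks. Hepatocellular carcinomas (HCC) formed a group of 5 from 4 p53f/f mice and a group of 5 from as many p53LKO mice, and the last group was 5 tumors from 5 p53LKO mice labelled ICC, intrahepatic cholangiocarcinoma. Mouse 3717 gave 2 of the p53f/f HCC, and mice 3731, 3733, 3976 and 5283 each gave a p53LKO HCC and an ICC. The study followed control mice to later ages than those at which p53LKO mice were examined, and neither the age behind each array nor the Cre driver was given in the sources used here, so age and genotype cannot be told apart between the HCC groups.

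In the C-C family of ligands the first cysteines are adjacent, in the C-X-C family a residue lies between them, and the CX3C and XC families are represented here by Cx3cl1 (fractalkine) and Xcl1 (lymphotactin). The C-X-C ligands with a glutamate-leucine-arginine (ELR) motif act mainly on Cxcr2 and attract neutrophils. Cxcl9, Cxcl10 and Cxcl11 are induced by interferon and act on Cxcr3 of T and NK cells. In liver, Ccl2 and its receptor Ccr2 are known for the recruitment of monocytes, and Ccl17 and Ccl22 attract T cells that carry Ccr4.

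A level below is the log2 of a probe's processed signal minus that of the 75th percentile of its array, and a difference is between group means of such levels, given with its standard error (SE). Levels are listed in the order of mouse number, that is 3681, 3715, 3716, 3717 and 3717 for p53f/f HCC, 3731, 3733, 3975, 3976 and 5283 for p53LKO HCC, and 3731, 3733, 3976, 3977 and 5283 for ICC. A gene is represented by its brightest probe, and levels of different genes cannot be compared. A probe entered the test if, in either group, 3 or more arrays had it well above background by the scanner software. It was called at a limma p, adjusted by Benjamini-Hochberg over all probes, under 0.05 together with a fold change over 2. Both comparisons use the p53LKO HCC arrays and are therefore not independent. In whole tumors, fewer cells of a type and less RNA per cell cannot be told apart.

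Arrays in the upper row of a slide had 55.1% to 70.1% of their probes well above background and those in the lower row 37.0% to 47.0%. The p53f/f HCC were all in upper rows and the ICC all in lower rows, while the p53LKO HCC of mice 3976 and 5283 lay in a lower row and the other 3 in an upper row. The lowest level on an array was -7.51 to -6.07 in upper rows and -5.53 to -4.48 in lower rows, so that dim genes reach a higher floor in ICC. The probe named Trp53 averaged -1.01 ± 0.28 in p53f/f HCC, -3.09 ± 0.46 in p53LKO HCC and -3.07 ± 0.70 in ICC (SD, n = 5 each). The scanner files place this probe on another chromosome than Trp53, so it is an uncertain check of the deletion. The mean level of the cholangiocyte markers was 1.10 to 1.43 in ICC and -2.88 to 0.23 in HCC.

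In p53LKO HCC against p53f/f HCC, 44 of the 56 genes were tested. Higher levels were called for 7 (15.9%) and lower levels for 2 (4.55%), against 5.2% and 10.8% of all 17859 genes tested. The groups did not overlap for 3 members that were higher and 2 that were lower, against 8.16% and 11.3% of all genes. The median log2 difference was 0.58 over the 44 members and 0.06 over all genes. Among the 29 ligands tested 5 were called higher and 0 lower (12 and 1 at an unadjusted limma p under 0.05), and among the 15 receptors 2 were called higher and 2 lower. These counts take Ccr8 as higher by its brighter probe, and by its other probe, which was called lower, they are 6 higher and 3 lower over the members and 1 and 3 over the receptors. Over all 58 member probes tested, 9 were called higher and 4 lower. Of the 44, 5 entered the test through p53LKO HCC alone, 1 of them called (Ccl17).

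In ICC against HCC of p53LKO mice, 47 genes were tested, of which 18 (38.3%) were called higher and 6 (12.8%) lower, against 13.2% and 15.2% of all 16973 genes tested. The groups did not overlap for 12 members that were higher and 2 that were lower, against 10.9% and 19.8% of all genes. The median log2 difference was 0.65 over the members and -0.17 over all genes. Of the 32 ligands tested 12 were called higher and 3 lower, and of the 15 receptors 6 and 3. Of the 47, 13 entered the test through 1 group alone, among them 3 of the calls higher (Ccl1, Ccl11, Cxcl17) and 3 of the calls lower (Ccr3, Cxcr2, Ccr10). In all, 29 members were called in at least 1 comparison and 4 in both, namely Ccl12, Ccl17, Ccl25 and Ccr6.

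**Figure D1:**
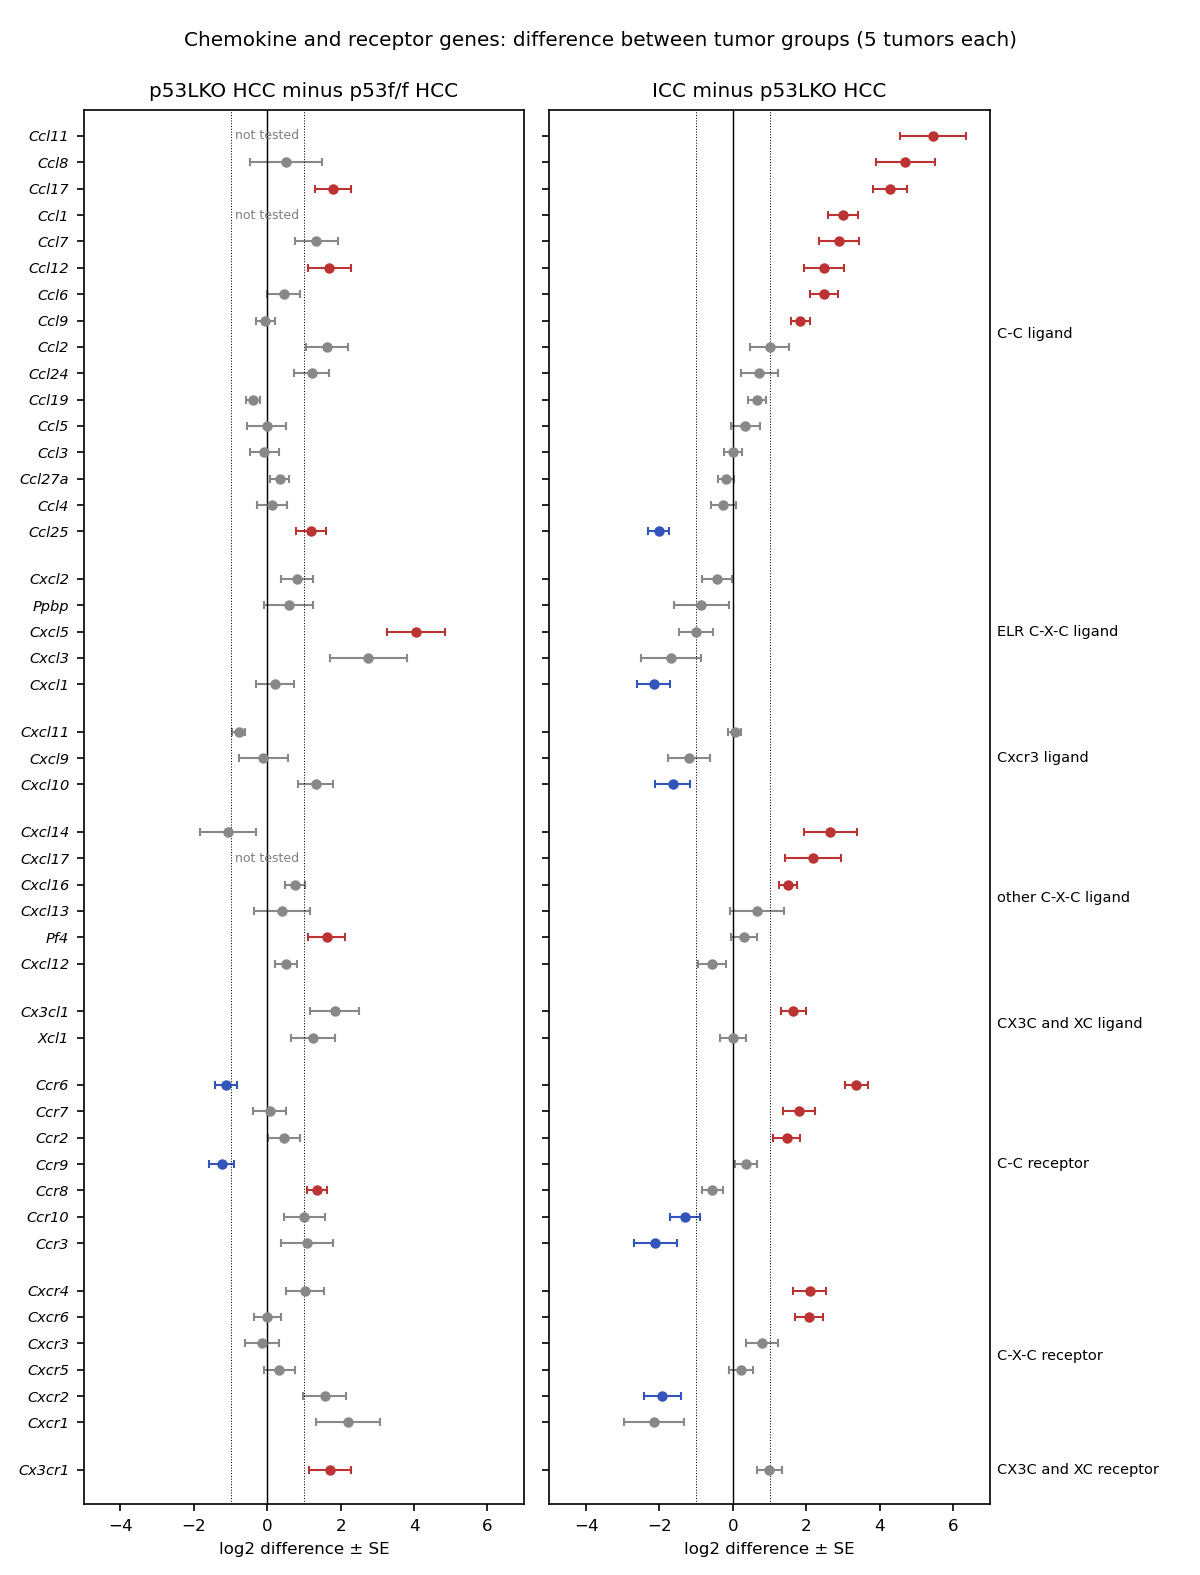
Log2 difference between group means (points) with its standard error (bars) for 46 of the 47 tested chemokine and receptor genes, by class, in p53LKO HCC minus p53f/f HCC (left) and ICC minus p53LKO HCC (right); red is called higher, blue called lower, grey not called, and dotted lines mark a fold change of 2. The 9 calls on the left reach from -1.23 to 4.06 and the 23 drawn on the right from -2.16 to 5.45.

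Cxcl5, an ELR ligand of Cxcr2, showed the largest difference between the HCC groups among the members tested. Its levels were -2.37, -4.02, -0.14, -3.69 and -0.49 in p53f/f HCC and 3.12, 1.50, 1.99, 0.48 and 2.48 in p53LKO HCC. All p53LKO HCC lay above all p53f/f HCC, although Cxcl5 varied widely among the p53f/f tumors. The log2 difference was 4.06 ± 0.79 (adjusted p = 0.00309), a 16.6-fold higher mean signal. Of the p53f/f arrays 4 of 5 had Cxcl5 well above background. With the other at no less than the lowest level detected on it, the mean signal was 15.9-fold higher. The exact 2-sided permutation test gave p = 0.00794, the smallest that 5 against 5 tumors allow. Any gene without overlap gives this value, and the test counts the 2 tumors of mouse 3717 separately. Within slide 1, which held 4 p53f/f and 2 p53LKO HCC, the difference was 4.04 with an adjusted p of 0.0646. Of the 5 ELR ligands tested, the other 4 were not called. Cxcl3 spread from -6.30 to -1.32 in p53f/f HCC and from -3.36 to 1.26 in p53LKO HCC, with a measured difference of 2.75 ± 1.06 (adjusted p = 0.0669). It entered the test through p53LKO HCC alone, with 2 of 5 p53f/f arrays well above background, and with the other p53f/f arrays at no less than the lowest level detected on the array the difference was 1.93. Cxcl1 averaged 3.32 ± 0.99 and 3.52 ± 0.86 (SD, n = 5 each).

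Of the 4 neutrophil markers tested in this comparison, S100a8, S100a9 and Retnlg were called higher in p53LKO HCC, by 1.84, 2.10 and 2.22 on the log2 scale, and Csf3r lower, at -1.55. The mean level of the neutrophil markers was -1.34 to 0.35 in p53f/f HCC and -0.10 to 1.51 in p53LKO HCC, and their part in the Cxcl5 result was not tested. Cxcr2, the receptor of the ELR ligands, read -3.30, -5.71, -3.46, -4.38 and -4.01 in p53f/f HCC and -1.64, -2.70, -2.27, -4.52 and -1.89 in p53LKO HCC. These groups overlapped, 3 arrays of each were well above background, and the difference of 1.57 ± 0.58 (adjusted p = 0.0603) missed the threshold. Its paralog Cxcr1 also missed it, with a difference of 2.20 ± 0.88 (adjusted p = 0.0765) and levels of -5.51 to -0.67 among the p53LKO HCC. Cxcr1 was well above background in 2 p53f/f and 3 p53LKO HCC. Within the upper row both receptors were called higher, Cxcr2 at 1.97 (adjusted p = 0.023) and Cxcr1 at 2.98 (adjusted p = 0.0267), and Cxcr1 also with the row as a block (2.98, adjusted p = 0.0402).

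Ccl17, a ligand of Ccr4, was the other ligand that was higher in every p53LKO HCC than in every p53f/f HCC. Its levels were -4.29, -3.35, -4.36, -4.23 and -3.24 in p53f/f HCC, of which 2 were well above background, and -0.17, -2.61, -2.48, -2.52 and -2.73 in p53LKO HCC. The tumor of mouse 3731 lay far above the other 4 of its group. The difference was 1.79 ± 0.48 (adjusted p = 0.0158) with this tumor and 1.31 (adjusted p = 0.00624) without it. Normexp background correction gave 0.61 with an adjusted p of 0.0858, and the methods' t-test an adjusted p of 0.0592.

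The HCC of mouse 3731 read high in several members. Its level was the highest of the p53LKO HCC for Ccl5 (3.74, against 1.69 to 2.22 in the others), Ccr7 (1.46, against -1.11 to -0.71), Cxcr4 (0.18) and Cxcr3 (0.25). The mean level of the stellate cell and fibroblast markers was 2.53 in this tumor, the highest of the p53LKO HCC, and that of the general leukocyte markers was 1.31, again the highest. Their part in its chemokine levels was not tested. Without this tumor, 6 members were called between the HCC groups in place of 9.

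Ccl12, a Ccr2 ligand, was called higher in p53LKO HCC. It read -4.41, -4.07, -3.08, -3.49 and -1.80 in p53f/f HCC and 0.02, -1.68, -1.45, -2.95 and -2.34 in p53LKO HCC, so the groups overlapped. The difference was 1.69 ± 0.59 (adjusted p = 0.0474), and the call was lost without any 1 of 7 tumors, all except the second of p53f/f mouse 3717 and the p53LKO HCC of mice 3976 and 5283. It ranged from 1.27 without the p53LKO HCC of mouse 3731 to 1.76 without the p53f/f HCC of mouse 3716 among these 7. With the slide as a block the difference was 0.99 (adjusted p = 0.0949).

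Cx3cr1, the fractalkine receptor of monocytes and macrophages, read -0.50, 1.74, 2.73, 0.42 and 2.07 in p53f/f HCC and 3.97, 2.63, 3.27, 2.31 and 2.88 in p53LKO HCC, a difference of 1.72 ± 0.57 (adjusted p = 0.039). Pf4 (platelet factor 4, Cxcl4), which platelets and some macrophages make, had levels of -0.35 to 2.40 in p53f/f HCC and 1.80 to 3.73 in p53LKO HCC, a difference of 1.62 ± 0.50 (adjusted p = 0.0293). In both genes the p53f/f tumor of mouse 3681 was the lowest and the p53LKO tumor of mouse 3731 the highest. Without the former the difference of Cx3cr1 was 1.27 (adjusted p = 0.0666) and that of Pf4 1.27 (adjusted p = 0.0572), and without the latter they were 1.48 (adjusted p = 0.0841) and 1.35 (adjusted p = 0.0636). Both calls were also lost without the first tumor of p53f/f mouse 3717 or the p53LKO HCC of mouse 5283, that of Cx3cr1 without the p53LKO HCC of mouse 3733 or 3975, and that of Pf4 without the second tumor of mouse 3717. Averaging both tumors of mouse 3717, so that each mouse counts once, ended both calls, with 1.71 (adjusted p = 0.0551) for Cx3cr1 and 1.58 (adjusted p = 0.0595) for Pf4. With the row as a block the difference of Pf4 was 1.75 (adjusted p = 0.0549), and with the slide as a block those of Cx3cr1 and Pf4 were 1.40 (adjusted p = 0.111) and 1.53 (adjusted p = 0.0706). Of the 4 platelet markers tested, limma called 0, and 0 had an unadjusted p under 0.05. Of the 7 macrophage and monocyte markers tested 0 were called, and 2 had an unadjusted p under 0.05, both higher in p53LKO HCC.

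Ccl25, which attracts thymocytes and gut-homing T cells through Ccr9, read 1.12, 1.61, 1.47, 0.11 and -0.19 in p53f/f HCC and 1.17, 2.50, 2.57, 2.31 and 1.53 in p53LKO HCC, a difference of 1.19 ± 0.41 (adjusted p = 0.0459). The lowest values are the tumors of mouse 3717, and averaging these 2 tumors ended the call (0.98, adjusted p = 0.104). It was lost without any 1 of 6 tumors, those of p53f/f mice 3681 and 3717 (either) and p53LKO mice 3733, 3975 and 3976, with differences down to 0.94. The call was also lost with the row as a block, at 1.26 (adjusted p = 0.0883), and with the slide as a block, at 1.36 (adjusted p = 0.0502).

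The receptor Ccr9 went the other way, with p53f/f levels of -2.69, -1.05, -2.05, -2.77 and -2.70 all above the p53LKO levels of -3.17, -3.55, -3.37, -3.18 and -4.14. The measured fall was 1.23 on the log2 scale (SE 0.34, adjusted p = 0.0181). Of the p53LKO arrays 3 of 5 had Ccr9 well above background, and with the others counted at no less than the lowest level detected on the array, the difference was -0.83, under the fold threshold, and the groups overlapped. With the row as a block the difference was -1.11 (adjusted p = 0.067), and leaving out p53f/f mouse 3715 made it -0.93, under the fold threshold. Of the 5 dendritic cell markers tested, Flt3 and Siglech were also called lower (-1.79 and -1.02). Zbtb46, Clec9a and Itgax were not called, with differences of -0.52, -0.56 and 0.73. The mean level of the 5 markers was 0.99 to 1.23 in p53f/f HCC and 0.28 to 0.65 in p53LKO HCC. Their part in the Ccr9 result was not tested. Ccr6, the receptor of Ccl20 on B cells and some T cells, fell by 1.13 on the log2 scale (SE 0.30, adjusted p = 0.0147), from -2.44, -2.22, -2.94, -2.42 and -2.24 to -2.56, -3.35, -3.80, -4.04 and -4.16. The p53LKO HCC of mouse 3731 fell within the p53f/f range and the other 4 read below it, but those of mice 3976 and 5283 were not well above background. Counted in the same way, the difference of Ccr6 was -0.56, so the called fall rests on these arrays. With the row as a block the difference was -0.79 (adjusted p = 0.0687), and leaving out p53LKO mouse 5283 made it -0.99. Of the 5 B cell markers tested, Pax5 was also called lower (-1.72), and the part of B cells in the Ccr6 result was not tested.

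Several ligands of monocyte and T cell receptors lay near the threshold, and their calls depended on the setting. The levels of Ccl2 were 1.20, 2.80, 1.75, 0.74 and 1.77 in p53f/f HCC and 3.70, 3.44, 3.02, 1.38 and 4.84 in p53LKO HCC, a difference of 1.62 ± 0.58 (adjusted p = 0.0508). Ccl2 was called higher in 7 of 28 settings, among them within the upper row, at 1.73 (adjusted p = 0.0154), and without the p53LKO HCC of mouse 3976, at 2.09 (adjusted p = 0.00794). The difference of Cx3cl1 was 1.84 ± 0.67 (adjusted p = 0.0562) and that of Cxcl10 1.32 ± 0.49 (adjusted p = 0.0577), and they were called higher in 5 and 6 of 28 settings. Without the p53LKO HCC of mouse 3976, Cxcl10 stood at 1.60 (adjusted p = 0.0292). Cxcl16, the ligand of Cxcr6, had a difference of 0.77 ± 0.27 (adjusted p = 0.0497), under the fold threshold. The receptors Ccr2, Cxcr3 and Cxcr6 differed by 0.46, -0.14 and 0.00 with standard errors of 0.43, 0.46 and 0.37, so differences of about the size of these errors were not detectable with 5 tumors a group. Ccl3, Ccl4 and Ccl5, which attract T cells and monocytes, differed by -0.08, 0.12 and -0.01 with standard errors of 0.39, 0.41 and 0.53. For Ccl19 and Cxcl13, which organise lymphoid tissue through Ccr7 and Cxcr5, the differences were -0.38 ± 0.19 and 0.40 ± 0.77.

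In ICC, 8 of the 16 C-C ligands tested were called higher than in HCC and 1 lower, with a median log2 difference of 1.42. Ccl11 (eotaxin, a ligand of Ccr3) read -2.78, -4.35, -5.75, -5.36 and -4.35 in p53LKO HCC, where 2 of 5 arrays were well above background, and 2.14, 2.78, -0.58, 2.12 and -1.78 in ICC. Every ICC lay above every HCC. The measured difference was 5.45 ± 0.89 (adjusted p = 0.000886). Ccl11 entered the test through ICC alone, and with each HCC array that lacked it counted at no less than the lowest level detected on that array, its mean signal was at least 21.2-fold higher in ICC. Ccl8 went from 1.26, -2.20, 0.44, -2.19 and -2.83 to 3.53, 4.73, 3.57, 4.15 and 1.99, again without overlap, and rose by 4.70 ± 0.81 (adjusted p = 0.00119).

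The neighbours of these genes were called higher as well. Ccl7 rose by 2.90 ± 0.55 (adjusted p = 0.00211) and Ccl12 by 2.48 ± 0.54 (adjusted p = 0.0044). Ccl1, a ligand of Ccr8, was well above background in 1 HCC and 4 ICC, so it entered the test through ICC alone. Its measured difference was 3.01 ± 0.41 (adjusted p = 0.000327), and counted in the same way as Ccl11 it was at least 3.68-fold higher in ICC. The groups did not overlap for Ccl7. Those of Ccl1 did not as measured, but did once undetected arrays were counted in this way. For Ccl12 the HCC of mouse 3731, at 0.02, exceeded the ICC of mouse 5283, at -0.42. Ccl2 had a difference of 1.01 ± 0.53 (adjusted p = 0.145), with ICC levels of 4.27, 4.81, 4.76, 3.95 and 3.61 that the highest HCC, at 4.84, exceeded.

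**Figure D2:**
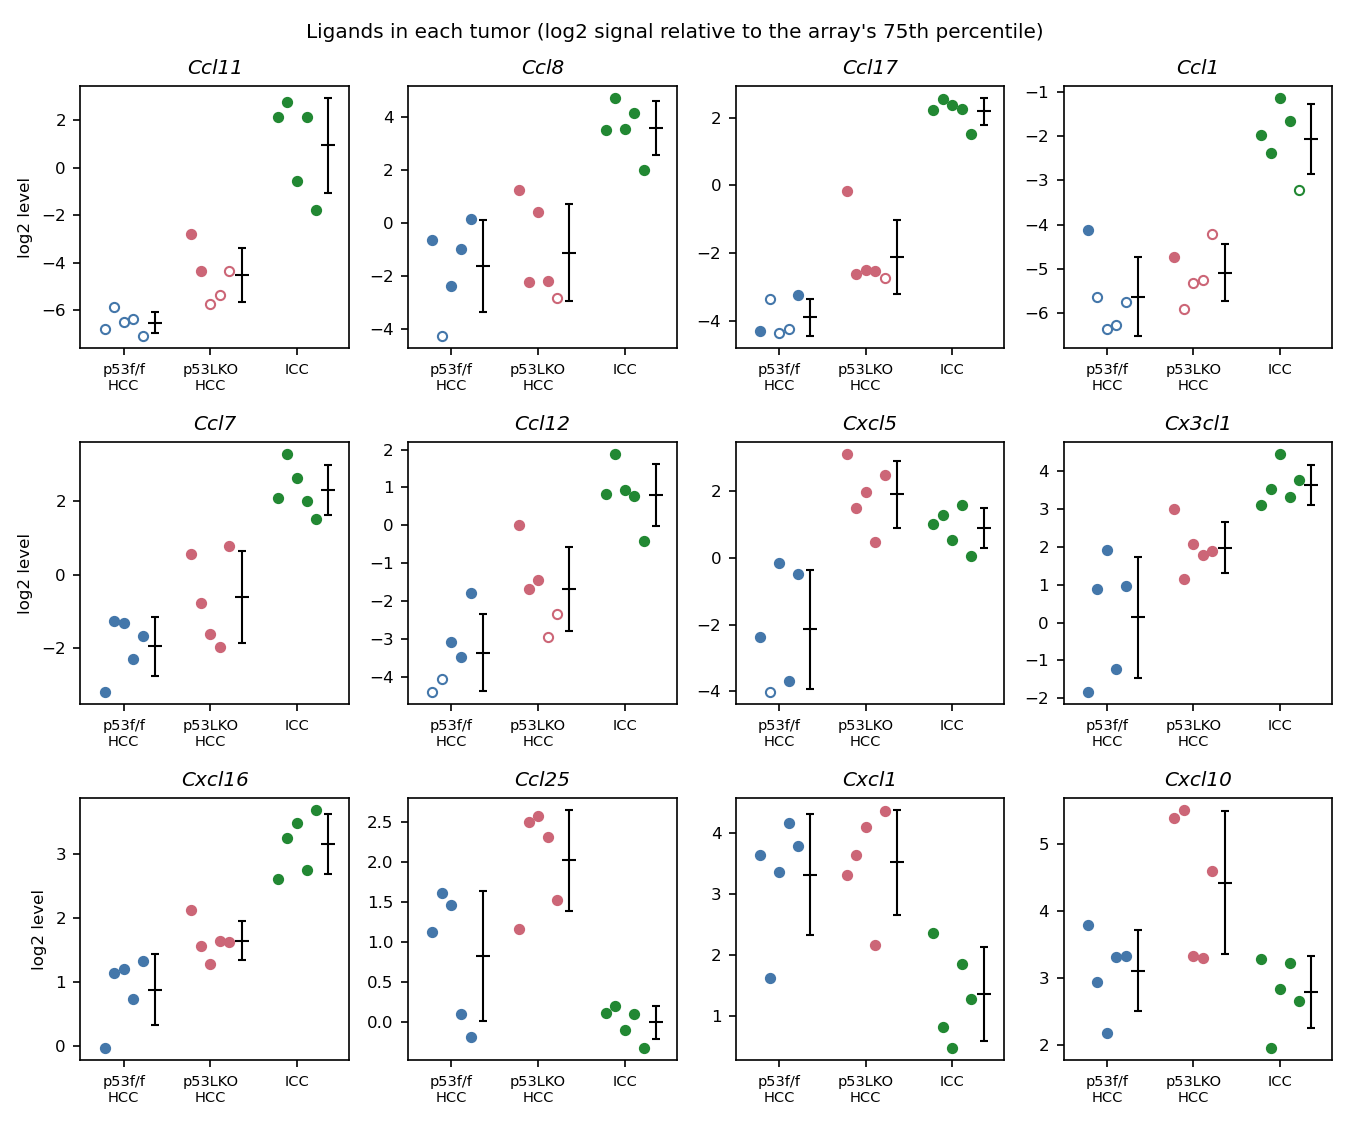
Level of 12 ligands (log2 signal relative to the array's 75th percentile) in each tumor, ordered by mouse number within a group; filled points were well above background, open points were not, and black bars give the mean and SD of 5 tumors. Ccl11, Ccl8, Ccl17 and Ccl7 are higher in every ICC than in every p53LKO HCC, and Ccl25 and Cxcl10 are lower.

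Ccl17 was higher again in ICC and spread little there. Its ICC levels were 2.23, 2.55, 2.37, 2.24 and 1.50, all above the HCC range that ended at -0.17, and the difference was 4.28 ± 0.46 (adjusted p = 0.000101), or 19.4-fold. Of the HCC arrays 4 of 5 had Ccl17 well above background, and with the other counted as for Ccl11 it was 17.9-fold higher in ICC. Ccl22, the other ligand of Ccr4, was well above background on 1 of the 15 arrays and was not tested, and Ccr4 itself was well above background in 2 p53f/f HCC and in no other tumor. The bases before the RefSeq start of Ccl17 are shown because it is, with Ccl12, a ligand called higher in both comparisons. They are chr8:94810203-94810452 of GRCm38.p6, plus strand, with a STAT-like word (TTCNNNGAA, nearer the start) and the same word with 1 more free base, the spacing known for STAT6, in capitals.
Ccl17: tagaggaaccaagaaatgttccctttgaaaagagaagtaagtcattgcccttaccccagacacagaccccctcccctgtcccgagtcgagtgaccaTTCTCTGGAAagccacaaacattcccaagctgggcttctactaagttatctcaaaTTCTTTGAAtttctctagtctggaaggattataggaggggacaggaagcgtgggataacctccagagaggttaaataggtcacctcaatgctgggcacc
On either strand, the STAT-like word occurs in 7.02% and the longer one in 5.85% of the 32851 RefSeq stretches of these 250 bases, and in 4 and 1 of the 45 stretches found for 41 of the members. A match of letters is a description and shows no binding.

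Ccl6 and Ccl9, ligands of Ccr1 that myeloid cells make in mice, were higher in every ICC than in every HCC. Ccl6 went from 2.44, 1.82, 1.34, 1.66 and 3.14 to 4.80, 4.93, 4.16, 5.24 and 3.65, a difference of 2.47 ± 0.39 (adjusted p = 0.000702). Ccl9 went from 4.58, 5.33, 4.29, 4.53 and 5.31 to 6.48, 6.79, 6.52, 6.32 and 7.13, a difference of 1.84 ± 0.25 (adjusted p = 0.000348). The transmembrane ligands Cx3cl1 and Cxcl16, which can be shed from the cell surface, rose by 1.65 ± 0.34 (adjusted p = 0.0034) and 1.51 ± 0.24 (adjusted p = 0.000827), also without overlap.

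Cxcl14, a chemokine of epithelia, rose by 2.66 ± 0.72 (adjusted p = 0.0123), with HCC levels of -1.09 to 2.25 and ICC levels of 1.62 to 5.13. With the mouse as a block its difference was 2.41 (adjusted p = 0.0636), and within the lower row 2.43 (adjusted p = 0.0814). Cxcl17, a mucosal chemokine, rose by 2.18 ± 0.77 (adjusted p = 0.0386), but it was well above background in 1 HCC and 3 ICC (at least 2.02-fold higher when counted as Ccl11 was), and its difference was 1.05 (adjusted p = 0.404) within the lower row and 1.40 (adjusted p = 0.116) with the mouse as a block. Its call was also lost without the HCC of mouse 3731 (1.91), 3975 (1.71) or 3976 (2.28).

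Fewer ligands were lower in ICC. Ccl25 fell by 2.02 on the log2 scale (SE 0.28, adjusted p = 0.00039) to 0.11, 0.20, -0.10, 0.09 and -0.33, below every p53LKO HCC. Cxcl1 fell by 2.16 on the log2 scale (SE 0.46, adjusted p = 0.00368), from 3.31, 3.65, 4.11, 2.16 and 4.37 to 2.37, 0.82, 0.47, 1.86 and 1.28, and the groups overlapped. Cxcl10 fell by 1.64 on the log2 scale (SE 0.47, adjusted p = 0.0168), from 5.38, 5.51, 3.33, 3.30 and 4.59 to 3.27, 1.95, 2.83, 3.22 and 2.65, with all ICC below all HCC by a narrow margin. Within the lower row the differences were -1.91 for Cxcl1 (adjusted p = 0.0824) and -1.16 for Cxcl10 (adjusted p = 0.108). Of the 5 ELR ligands tested, Cxcl1 was called lower and 0 were called higher (0 also at an unadjusted p under 0.05), with a median difference of -1.01. Cxcl9, a Cxcr3 ligand, had a difference of -1.19 ± 0.57 (adjusted p = 0.11) and was not called. It was lower in the ICC of each of the 4 mice that gave both tumors, by log2 differences of -2.05 to -0.59, and with the mouse as a block it was called lower, at -1.52 (adjusted p = 0.0192).

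The bases before Cxcl1, Cxcl2 and Cxcl3 are shown because these neighbouring ELR genes share an NF-kB-like word (GGG and TTTCC with 2 free bases between, either strand, in capitals), while Cxcl1 alone of them was called in ICC. They are the 100 bases before each RefSeq start on GRCm38.p6, plus strand, at chr5:90891145-90891244, chr5:90903799-90903898 and chr5:90786001-90786100.
Cxcl1: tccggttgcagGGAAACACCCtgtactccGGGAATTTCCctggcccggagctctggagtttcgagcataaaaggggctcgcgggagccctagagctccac
Cxcl2: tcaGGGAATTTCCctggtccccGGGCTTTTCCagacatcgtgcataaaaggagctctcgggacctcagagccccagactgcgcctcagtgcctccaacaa
Cxcl3: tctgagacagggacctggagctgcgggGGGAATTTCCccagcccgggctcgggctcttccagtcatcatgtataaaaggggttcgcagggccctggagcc
The word occurs in 6 of the 45 member stretches of 250 bases (13.3%) and in 1.41% of all 32851, the other 3 members being Ccl20, Ccl9 and Ccr3. Of 8 NF-kB pathway genes tested, 4 were called higher and 1 lower in ICC, against 13.2% and 15.2% of all genes. Nfkb2, Relb, Nfkbiz and Tnfaip3 were called higher in ICC, by 1.01, 1.82, 1.76 and 1.28 on the log2 scale, and Ikbkb lower, at -1.13. Nfkb1, Nfkbia and Rela were not called, with differences of 0.67, 0.89 and -0.40.

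Cxcl10 is shown for its interferon response word (ISRE-like, GAAA repeated after 2 free bases, the first in capitals) and an AP-1 word (TGANTCA, the second), at chr5:92348890-92349139 of GRCm38.p6, minus strand.
Cxcl10: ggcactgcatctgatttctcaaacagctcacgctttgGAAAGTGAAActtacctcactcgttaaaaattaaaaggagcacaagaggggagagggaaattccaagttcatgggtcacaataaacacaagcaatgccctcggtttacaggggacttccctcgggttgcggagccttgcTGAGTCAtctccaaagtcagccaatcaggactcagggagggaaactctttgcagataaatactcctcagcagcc
The ISRE-like word occurs on either strand in 2.98% of all stretches and in 3 of the 45 of members, the others being Ccl19 and Cxcl14. The AP-1 word occurs in 6.75% of all and in 6 of 45. The interferon-related genes Irf1 and Ifng were not called between ICC and HCC, with log2 differences of -0.33 and 0.22.

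Among receptors, Ccr6 had the largest measured rise in ICC, 3.37 ± 0.32 (adjusted p = 5.38e-05). It was well above background in 3 of 5 p53LKO HCC, and with the other 2 at no less than the lowest level detected on the array it was at least 6.94-fold higher in ICC. Its ICC levels of -0.74, 0.09, -0.03, 0.20 and -0.58 lay above all HCC of both genotypes. Its ligand Ccl20 was not well above background on any array. Cxcr4, the receptor of Cxcl12, rose by 2.09 ± 0.46 (adjusted p = 0.00435), from 0.18, -2.07, -2.49, -1.32 and -1.82 to 0.35, 0.68, 0.62, -0.05 and 1.33. The HCC of mouse 3731 alone reached into the ICC range. Cxcl12 itself read 3.47 to 4.50 in HCC and 2.24 to 4.23 in ICC, a difference of -0.58 ± 0.38 (adjusted p = 0.233). Ackr3 (formerly Cxcr7), another Cxcl12 receptor that the name rule does not take in, rose by 2.61 ± 0.62 (adjusted p = 0.00659).

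Cxcr6, a receptor of effector T cells, rose without overlap. It went from -0.09, -1.27, -0.29, -0.16 and -1.28 to 1.32, 2.39, 1.98, 1.14 and 0.46, a difference of 2.08 ± 0.39 (adjusted p = 0.00187). Ccr2 rose by 1.47 ± 0.37 (adjusted p = 0.009), and with the mouse as a block the difference was 1.21 (adjusted p = 0.0704). Ccr7 rose by 1.81 ± 0.44 (adjusted p = 0.00714), with ICC levels of 1.40, 0.97, 1.49, 1.46 and 1.59 above 4 of the HCC but not all above the HCC of mouse 3731, at 1.46. Within slide 2, which held 3 HCC and 4 ICC, the calls of Ccr7 and Ccr2 were lost, at 1.41 (adjusted p = 0.0823) and 1.28 (adjusted p = 0.0597). Cxcl16, the ligand of Cxcr6, rose as well. Ccl3, Ccl4 and Ccl5 differed by 0.00, -0.26 and 0.34 with standard errors of 0.26, 0.34 and 0.39. Cx3cr1, whose ligand Cx3cl1 rose, had a difference of 0.99 ± 0.34 (adjusted p = 0.0347), just under the fold threshold.

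**Figure D3:**
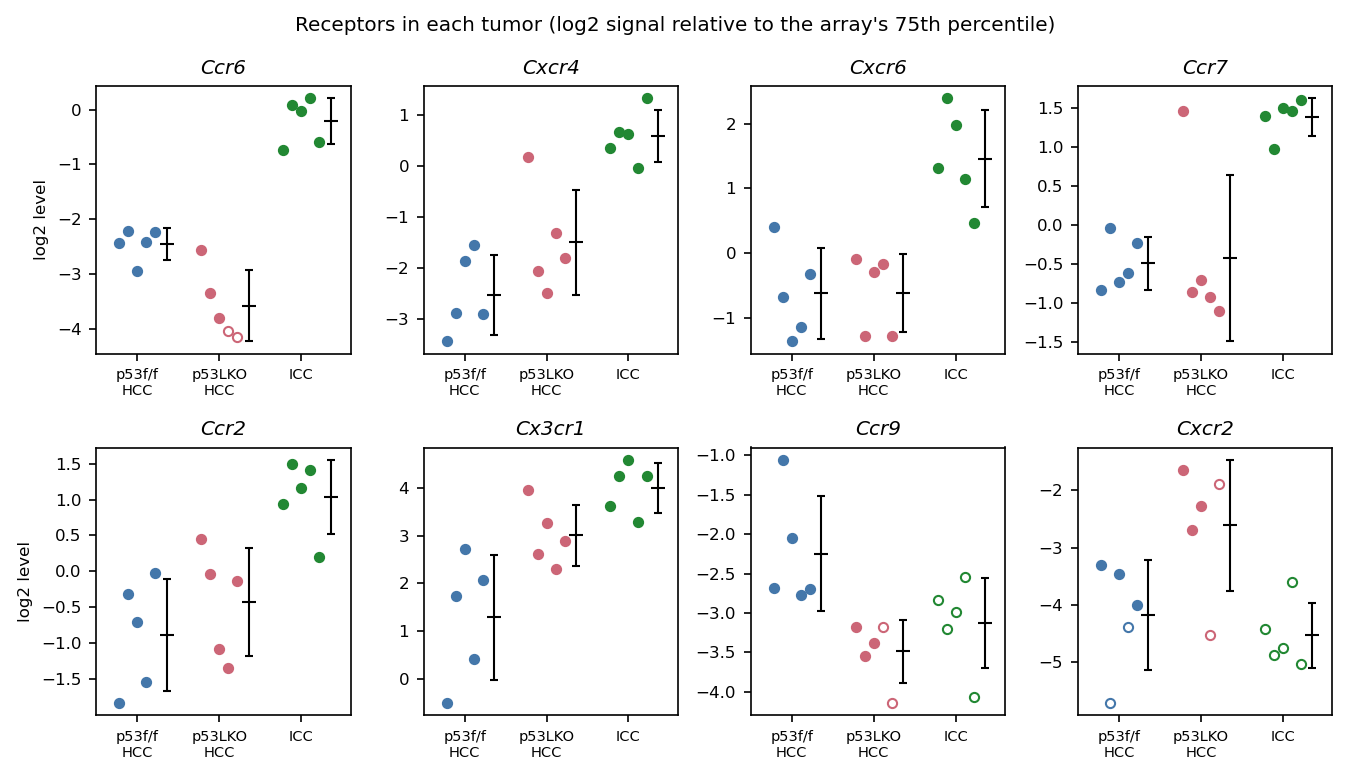
Level of 8 receptors (log2 signal relative to the array's 75th percentile) in each tumor, ordered by mouse number within a group; filled points were well above background, open points were not, and black bars give the mean and SD of 5 tumors. Ccr6 and Cxcr6 are higher in every ICC than in every p53LKO HCC, and no ICC point of Ccr9 or Cxcr2 was well above background.

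The receptors called lower in ICC were dim. Ccr3, Cxcr2 and Ccr10 had measured log2 differences of -2.11 ± 0.59 (adjusted p = 0.0149), -1.92 ± 0.50 (adjusted p = 0.0106) and -1.31 ± 0.40 (adjusted p = 0.0225), but 0 of 5 ICC arrays had them well above background. Taking for each ICC array the higher of the probe's own level and the lowest level detected on that array, Ccr3 (the eosinophil receptor) was at least 1.67-fold lower in ICC and Cxcr2 at least 1.08-fold lower, and for Ccr10 no bound above 1 could be given. The adjusted p-values belong to the measured differences and not to these bounds, which were not tested. Within the lower row the differences were -1.51 for Ccr3 (adjusted p = 0.144) and -1.32 for Cxcr2 (adjusted p = 0.188). Within that row, where 2 HCC meet 5 ICC, 18 of the 24 members called in ICC were called again, and the other 6 were Ccr3, Cxcr2, Cxcl1, Cxcl10, Cxcl14 and Cxcl17.

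In the 4 mice with both tumors, 15 of the 18 members called higher were higher in the ICC of every mouse, as were 85.6% of all genes called higher. The same arrays gave these calls, so the direction within mice is a description. The exceptions were Ccr7, Cxcl14 and Cxcl17, each higher in 3 of 4. The within-mouse log2 difference was 2.56 to 7.13 for Ccl11, 2.40 to 5.17 for Ccl17, 2.28 to 6.93 for Ccl8 and 1.82 to 4.01 for Ccr6. Mouse 3731 had the smallest difference of the 4 mice for Ccl17, Ccl8 and Ccr6, and mouse 5283 for Ccl11. Of the 6 called lower, 5 were lower in every mouse, against 93.9% of all genes called lower, and Ccr10 in 3 of 4.

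Several members lie side by side in the genome. On chromosome 11 (mm9, chr11:81850650-81990227 from the first probe to the last), Ccl2, Ccl7, Ccl11, Ccl12, Ccl8 and Ccl1 follow each other, and 5 of the 6, all but Ccl2, were called higher in ICC. In the next group (chr11:83339296-83478111), Ccl9 and Ccl6 were called higher and their neighbours Ccl5, Ccl3 and Ccl4 were not called. The Cxcl5 to Cxcl2 group of chromosome 5 (chr5:91190490-91334593) held Cxcl5 and Pf4, called higher in p53LKO HCC, and Cxcl1, called lower in ICC. On chromosome 8 (chr8:97274709-97335829), Cx3cl1 and Ccl17 were both called higher in ICC, with Ccl22 untested. Exon and UTR annotation of mm9 was not used here.

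**Figure D4:**
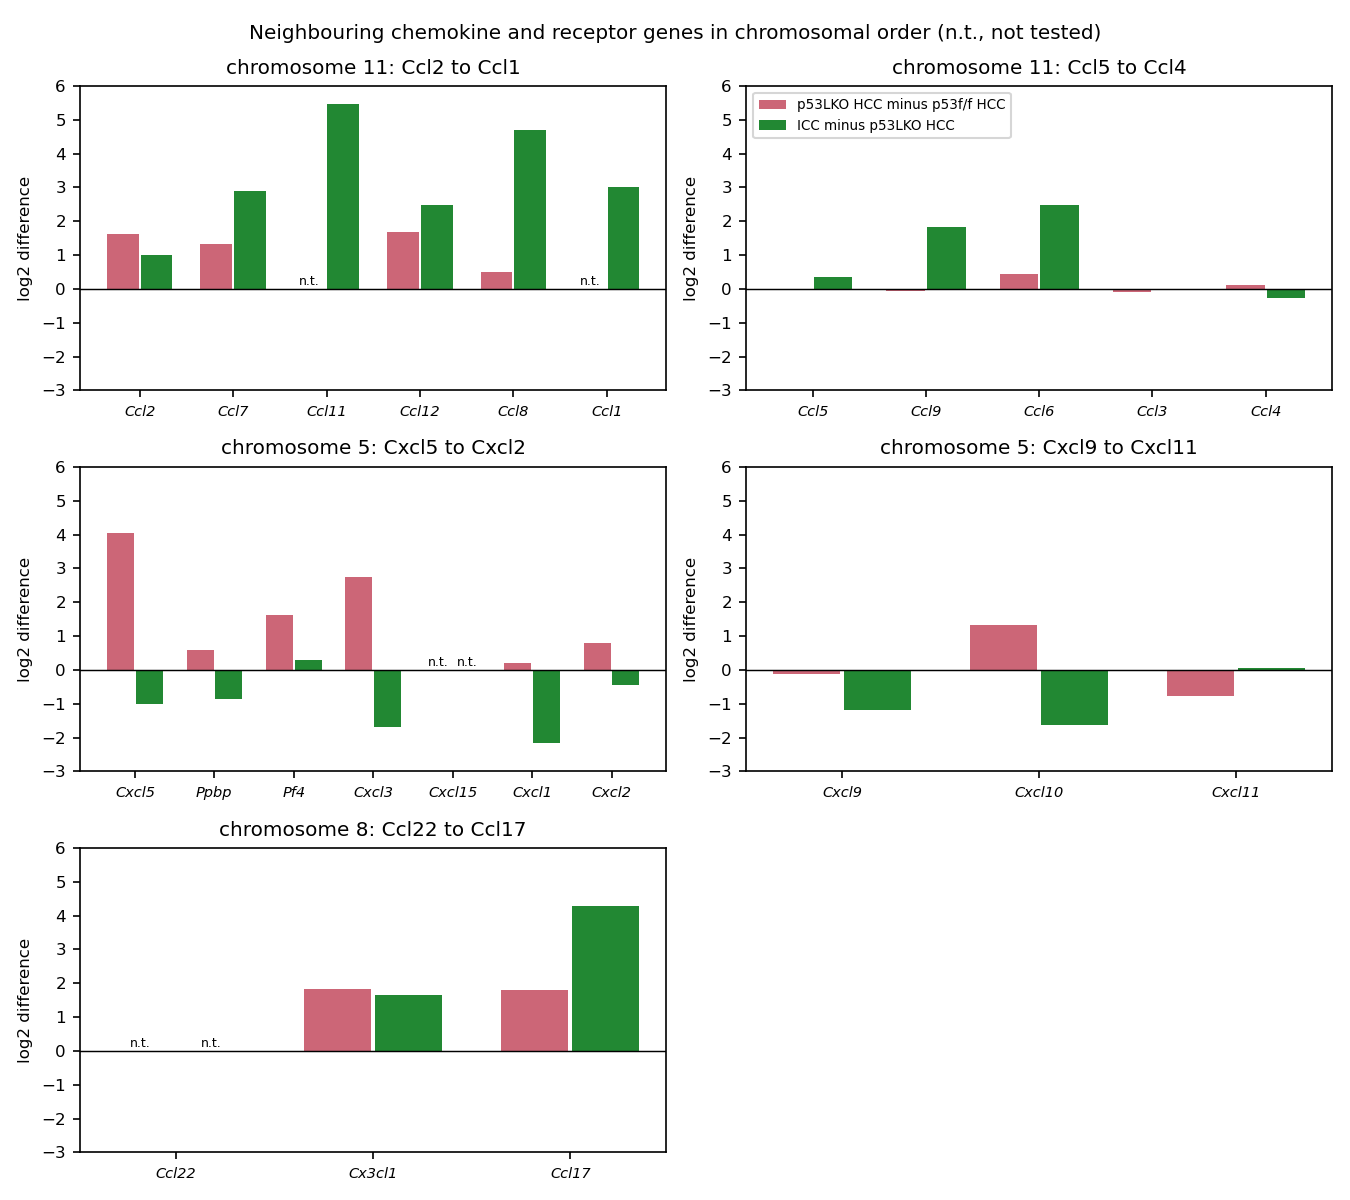
Log2 difference between group means (bars, 1 colour for each comparison as in the key) for 5 groups of members within 300 kb of the next member, in chromosomal order; n.t. marks genes not tested. In the Ccl2 to Ccl1 group the differences between ICC and HCC reach from 1.01 to 5.45, and in the Cxcl5 to Cxcl2 group from -2.16 to 0.30.

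For some members the probes gave different answers. The array has 2 probes for Ccr8, the Ccl1 receptor, at chr9:120003941-120004000 and chr9:120003293-120003352 of mm9, and their designed sequences are shown because they changed in opposite directions in p53LKO HCC.
Ccr8 brighter probe: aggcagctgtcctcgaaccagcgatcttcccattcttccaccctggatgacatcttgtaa
Ccr8 dimmer probe: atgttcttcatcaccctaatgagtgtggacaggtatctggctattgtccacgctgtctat
The brighter probe rose by 1.36 ± 0.27 (adjusted p = 0.00334), from -2.67, -2.55, -2.15, -2.61 and -2.28 to -2.02, -0.69, -0.82, -1.32 and -0.63. The dimmer probe fell by 2.03 on the log2 scale (SE 0.33, adjusted p = 0.00101), from -1.19, -1.80, -2.20, -2.12 and -2.40 to -4.93, -4.13, -3.62, -3.96 and -3.23. Neither overlapped between groups as measured. The dimmer probe was well above background on 3 of 5 p53LKO arrays, and with the others counted at the lowest detected level its difference was -1.66 and the groups overlapped, so the direction of Ccr8, counted above as higher by its brighter probe, is not settled.

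Cxcl11, a Cxcr3 ligand, has probes that hold letters found in many other places. Short stretches are shown from its probes at chr5:92788567-92788626 and chr5:92788640-92788699 of mm9, with a 16-base word shared with RefSeq promoters in capitals. Both stretches resemble the B1 repeat of rodent genomes.
Cxcl11 brighter probe: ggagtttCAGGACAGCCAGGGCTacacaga
Cxcl11 dimmer probe: cttgaaaGGCAGAGGCAGGAGGAtctcttg
The brighter probe shared a word of 16 bases with 55 of the 32851 promoters and 19 other array probes, and the dimmer with 10 promoters and 2 probes, against at most 3 of either for the other 69 member probes. The brighter probe had a difference of -0.78 ± 0.18 (adjusted p = 0.00749) in p53LKO HCC, without overlap but under the fold threshold. The dimmer probe fell by 2.14 on the log2 scale (SE 0.23, adjusted p = 0.000118) there and rose by 1.86 ± 0.37 (adjusted p = 0.00276) in ICC, where the brighter probe differed by 0.05 ± 0.17. Which transcripts these probes measured was not settled.

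Cxcl10 also had a dim second probe, which differed by -1.09 ± 0.53 between p53LKO and p53f/f HCC, where the bright probe stood at 1.32. With undetected arrays at the lowest detected level the dim probe stood at -0.25. For Ccl25 a dimmer probe, well above background on 4 p53f/f and 3 p53LKO arrays, was not called between the HCC groups (0.19 ± 0.33) or in ICC (-0.98 ± 0.28), where 0 arrays had it well above background, and its other probe was too dim for a test. A dimmer Ccl19 probe was called higher in ICC (1.52, adjusted p = 0.0296), unlike the brightest. For Cxcl12 the dimmer probe was called higher in p53LKO HCC (1.25 ± 0.41 (adjusted p = 0.0372)) and the brighter was not (0.51 ± 0.31). The Cxcr6 probes both gave 2.08 in ICC, and the 3 Cx3cr1 probes gave 1.35, 1.68 and 1.72 in p53LKO HCC.

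**Figure D5:**
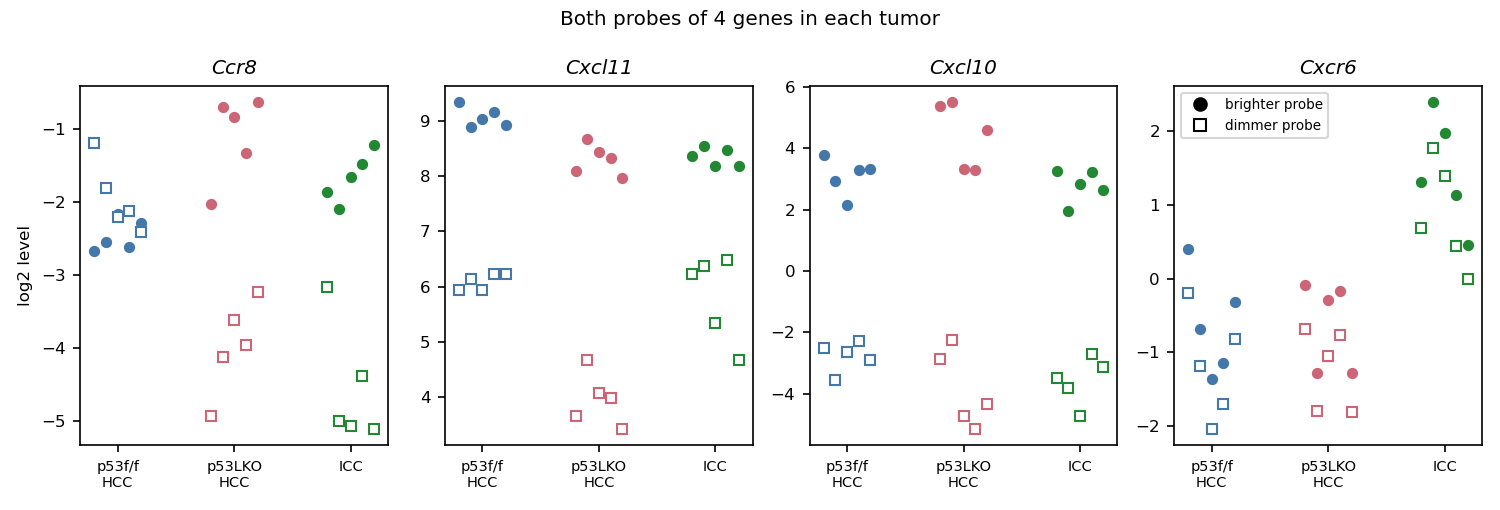
Levels of both probes of Ccr8, Cxcl11, Cxcl10 and Cxcr6 (log2 signal relative to the array's 75th percentile) in each tumor, with circles for the brighter probe and open squares for the dimmer. The Ccr8 probes part in opposite directions between p53f/f and p53LKO HCC, while the Cxcr6 probes run parallel.

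The 9 members tested in neither comparison were the ligands Ccl20, Ccl22, Ccl26, Ccl28 and Cxcl15 and the receptors Ccr1, Ccr1l1, Ccr4 and Xcr1. Ccl20, Ccl26, Cxcl15 and Xcr1 were not well above background on any of the 15 arrays, so for Xcl1, the ligand of Xcr1, only the ligand could be measured (1.25 ± 0.61 and 0.00 ± 0.35). Ccl1, Ccl11 and Cxcl17 were too dim for a test between the HCC groups. Cxcl17 read 2.31 in the first tumor of mouse 3717, while its highest p53LKO HCC read -3.28. By contrast, 27 members were well above background on all arrays.

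Of 39 further genes of chemokine signalling and its upstream control, 35 were tested between the HCC groups. Limma called 0 higher and 1 lower, the scavenging receptor Ackr1 (-1.02, adjusted p = 0.0258), against 5.2% and 10.8% of all genes. At an unadjusted p under 0.05 there were 12 higher and 2 lower. The median difference was 0.33, against 0.06 over all genes. In ICC 34 were tested, with 10 called higher and 3 lower, against 13.2% and 15.2% of all genes. The median was 0.50, against -0.17 over all genes. Rac2, a GTPase of leukocyte movement, rose by 3.63, the phosphoinositide kinase subunit Pik3r5 by 2.40, Tnf by 2.28 and Il1b by 1.56. Rarres2 (chemerin), which the liver secretes, fell by 2.21 on the log2 scale.

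Some markers of leukocytes and of other cells also differed between ICC and HCC of p53LKO mice. The mean level of the 4 general leukocyte markers was 1.24 to 1.92 in ICC, 0.14 to 1.31 in p53LKO HCC and -0.09 to 0.67 in p53f/f HCC. Of these markers 2 were called higher in ICC and 0 between the HCC groups (1 at an unadjusted limma p under 0.05). In ICC, 3 of 7 T cell markers tested, 2 of 4 B cell and 2 of 5 dendritic cell markers were called higher. So were 1 of 4 NK cell and 1 of 7 macrophage and monocyte markers, against 13.2% of all genes. Cd4 was called lower (-2.76), as were 15.2% of all genes. Of the 4 neutrophil and 4 platelet markers tested 0 were called, and 1 and 2 had an unadjusted p under 0.05. Of the 6 stellate cell and fibroblast markers 3 were called higher, with a mean level of 1.81 to 2.91 in ICC and 0.49 to 2.53 in p53LKO HCC. Of the 7 hepatocyte markers 4 were called lower, with a mean level of 5.51 to 7.61 in ICC and 7.71 to 8.05 in p53LKO HCC. Of the 5 endothelial markers tested 0 were called, and 1 had an unadjusted p under 0.05. The part of these cells in the chemokine differences was not tested.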

How the data were processed

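Total RNA of 15 tumors was labelled with Cy3 and hybridised to 1-colour Agilent mouse arrays. The authors deposited scanner output of Agilent Feature Extraction 10.7.3.1, whose processed signal is an intensity corrected for background, and a table of log2 values that the authors normalised from it. The members and gene lists were chosen with earlier results of these data known. Spots of a probe were averaged as log2, and each array was scaled to its 75th percentile. Limma 3.58.1 (R 4.3.3) was fitted to the groups compared, and its script was tested on simulated data. Members were named if called, up to 20 per comparison by size, then by listed ligand and receptor pairs; Ccr8 and Cxcl11 sequences and other probes were chosen after their values were seen. The number of arrays limits the precision. The labels name separate tumors, so p-values measure the spread between these, and the 2 tumors of mouse 3717 share a mouse. ICC and HCC pairs rest on the mouse numbers. Deviations of the same mouse correlated at -0.14 to 0.07, against -0.26 to 0.28 for 21 other pairs. Background correction, scaling, filters, blocks, the methods' Welch test, thresholds and leaving out tumors were varied. Motifs were searched in the 250 bases before each start in RefSeq GRCm38.p6, in which 15 members had no entry. Counts cover all members, of which 1 is not reported here by itself and not drawn. Python 3.11.15 was used for tables and figures.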

Additional observations from a re-analysis of the deposited data

Results flagged for a closer look

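In 4 of the 141 combinations of a tested member and a group of 5 tumors, 1 tumor lay so far from the other 4 that its gap exceeded Dixon's critical value (0.71 of the range of the group). Chance alone gives about 1 in 20, and 4 of 141 is below this rate. In the p53LKO HCC of mouse 3731, Ccl17 read -0.17 against -2.73 to -2.48 in the other p53LKO HCC, Ccl5 read 3.74 against 1.69 to 2.22, and Ccr7 read 1.46 against -1.11 to -0.71. In the ICC of mouse 5283, Cxcr3 read -1.36 against -0.26 to -0.13 in the other ICC. Both tumors had these probes well above background, and 62.1% and 43.1% of all probes on their arrays were well above background.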

How the results depend on the processing

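Between the HCC groups the 9 calls (7 higher, 2 lower) depended on the setting. They became 22 (22 higher) with spike-in scaling, which moved the median difference of all probes from -0.12 to 0.53, and 15 with all 15 arrays in 1 model. They became 4 if both groups had to be well above background throughout (28 members tested), 3 within slide 1, and 2 with either the methods' Welch test or an adjusted p under 0.01. With the 75th percentile taken over probes detected on all 15 arrays, 3 were higher and 3 lower, and normexp, quantile normalization and the row as a block gave 0 lower. Averaging the 2 tumors of mouse 3717 gave 6 (4 higher, 2 lower), all among the 9, and the slide as a block gave 6 (4 higher, 2 lower), 5 of them among the 9. Leaving out 1 tumor gave 5 (without the first tumor of p53f/f mouse 3717) to 13 (without the p53LKO HCC of mouse 3976). Of the 9 calls, 0 held in every setting. Cxcl5 was lost within slide 1 and Ccr8 with normexp, each in no other where it was tested. The uncalled difference of Ccr10 turned from 1.01 to -0.0261 with normexp. The causes were not tested.

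Between ICC and HCC, 24 calls became 14 under the same stricter filter (28 tested) and 22 to 25 without 1 tumor. Of the 24, 15 were called in every setting in which they were tested, and 6 of these 15 were not tested in all of them. With the mouse as a replicate block 23 were called, 20 of them among the 24. The calls of Ccr10, Ccr2, Cxcl14 and Cxcl17 were lost, and those gained included Cxcl9 and Cxcr1. Between the HCC groups a fixed mouse block could not be fitted, and for a random one limma returned a correlation for 0 of 36032 probes, since 1 mouse alone gave 2 tumors. With the row as a block 19 were called (17 higher, 2 lower). Low signal limits the members that entered the test through 1 group alone.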
